A study of Mus musculus with 4 samples.

Results

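The myosin heavy chain genes of skeletal and heart muscle were followed in the tibialis cranialis, a muscle of the front of the shin, after injection of AAV8 ProMyo or saline in mice fed a high fat diet. The members are named by gene symbol and no threshold on a measured value picks them: Myh1, Myh2, Myh3, Myh4, Myh6, Myh7, Myh7b and Myh8, which are 8 of the 18194 genes with a probe set of 1 symbol, read by 12 probe sets. All 4 arrays carried muscle of the same 8 male C57Bl/6 mice, which went from chow to the diet at 8 weeks of age. After 4 weeks of the diet the ProMyo leg received the vector and the other leg saline, and muscles were collected 10 weeks after injection, at an age of 22 weeks. RNA of animals 1 to 4 and of animals 5 to 8 was mixed in equal parts, so each group holds 2 arrays of 4 animals, and pools with the same numbers are legs of the same mice. ProMyo stands for the myostatin propeptide, a natural binding partner that holds this inhibitor of muscle growth inactive. The myostatin gene itself was not analysed here. The control leg received no empty vector, so effects of the propeptide and of the vector cannot be told apart, and the promoter of the transgene is not given in the sources used here.

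Myosin heavy chain is the motor of the thick filament, and the isoform a fibre holds largely sets how fast it shortens. Adult limb muscle of the mouse uses Myh4 (type 2B, the fastest), Myh1 (type 2X), Myh2 (type 2A, fast and oxidative) and Myh7 (slow, also the beta chain of heart). Myh3 and Myh8 are the embryonic and perinatal chains, which return in regenerating fibres, Myh6 is the alpha chain of heart, and Myh7b is a slow-tonic chain of heart, muscle spindles and extraocular muscle. The tibialis cranialis of mice is known as a fast muscle, rich in type 2B and 2X fibres.

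In the RefSeq gene table, Myh3, Myh2, Myh1, Myh4 and Myh8 follow each other on chromosome 11 in this order, with no other protein-coding gene between them. Myh6 and Myh7 are neighbours on chromosome 14, and Myh7b lies on chromosome 2. The 300 bases around the annotated start (250 before, 50 after) are shown for the 3 adult fast genes, which gave the brightest signals, and for Myh8, their dim neighbour. All 4 lie on the plus strand of GRCm38.p6, at chr11:67237562-67237861 for Myh4, chr11:67199852-67200151 for Myh1, chr11:67170777-67171076 for Myh2 and chr11:67276874-67277173 for Myh8. Capitals mark matches, on either strand, to the E-box (CANNTG), the TATA box (TATAAA), the MCAT element (CATTCC), and the MEF2 and CArG consensus sequences.
Myh4: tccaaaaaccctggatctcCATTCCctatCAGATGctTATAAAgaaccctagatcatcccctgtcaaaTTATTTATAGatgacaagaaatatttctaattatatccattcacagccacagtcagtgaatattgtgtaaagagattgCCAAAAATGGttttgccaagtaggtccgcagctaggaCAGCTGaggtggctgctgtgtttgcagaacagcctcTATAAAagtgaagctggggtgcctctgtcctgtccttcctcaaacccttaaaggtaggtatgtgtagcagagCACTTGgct
Myh1: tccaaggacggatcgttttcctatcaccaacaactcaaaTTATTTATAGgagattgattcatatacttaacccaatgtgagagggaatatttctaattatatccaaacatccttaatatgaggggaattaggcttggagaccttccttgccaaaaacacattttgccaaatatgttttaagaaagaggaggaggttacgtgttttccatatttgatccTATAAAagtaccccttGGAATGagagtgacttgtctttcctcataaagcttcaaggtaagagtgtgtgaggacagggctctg
Myh2: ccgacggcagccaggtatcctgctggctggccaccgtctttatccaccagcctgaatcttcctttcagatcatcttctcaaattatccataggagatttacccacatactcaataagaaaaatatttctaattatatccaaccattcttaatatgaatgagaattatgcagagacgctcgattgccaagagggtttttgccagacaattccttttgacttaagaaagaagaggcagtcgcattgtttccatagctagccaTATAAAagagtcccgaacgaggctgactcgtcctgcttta
Myh8: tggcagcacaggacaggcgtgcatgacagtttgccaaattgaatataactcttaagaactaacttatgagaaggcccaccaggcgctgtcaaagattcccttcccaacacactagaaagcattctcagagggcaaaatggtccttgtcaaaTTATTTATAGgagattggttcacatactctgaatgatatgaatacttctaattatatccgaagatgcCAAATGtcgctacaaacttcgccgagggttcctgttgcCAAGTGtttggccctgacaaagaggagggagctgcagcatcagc

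The longest run of bases common to the windows of Myh4, Myh1 and Myh2 was 20 bases long, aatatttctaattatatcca, and of the 32851 promoter windows of the RefSeq table these 3 alone held it on either strand. Its inner 14 bases, ttctaattatatcc, were in 4 windows, those of the same genes and of Myh8. The MEF2 match was the same 10 bases, ttatttatag, in Myh4, Myh1 and Myh8, and the Myh2 window had no MEF2 match. A MEF2 match was held by 3.19% of all windows, a CArG match (in Myh4 among the members) by 1.63%, an E-box by 72.3%, a TATA box by 13.6% and an MCAT element by 14.7%. In Myh4, Myh1 and Myh8 a TATA box match on the minus strand overlaps the MEF2 match. Myh8 shared these letters with Myh4 and Myh1, and its probe set had a mean log2 signal of 1.69 on the 4 arrays, against 12.04 and 11.56 for theirs. A match is a string of letters, not a measured site.

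Myh6, Myh7 and Myh7b each hold, within the gene and on its strand, a microRNA known from slow and cardiac gene programmes. Their mature sequences are shown because they come from a common family. Capitals mark the seed, bases 2 to 8. The microRNA of Myh6 lies at chr14:54949072-54949093 and that of Myh7 at chr14:54975710-54975731 (minus strand), and that of Myh7b at chr2:155622893-155622913 (plus strand), in GRCm38.p6 of RefSeq.
miR-208a-3p (in Myh6): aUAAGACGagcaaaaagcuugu
miR-208b-3p (in Myh7): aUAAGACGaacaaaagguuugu
miR-499-5p (in Myh7b): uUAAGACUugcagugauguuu
The seeds of the first pair are identical, UAAGACG, and that of Myh7b is UAAGACU. The microRNAs themselves were not measured here, and the host genes were among the 5 dim members.

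The arrays read RNA of skeletal muscle: all 10 fibre markers, Ckm, Acta1, Ttn and Ryr1 among them, lay above the background controls on every array. These controls are bacterial probe sets without a target in the sample, and their highest value was 0.57 to 0.99 by array. Of the 7 heart markers, Nppb was above the controls on all 4 arrays (0.87 to 1.18), Tnnt2 on 3, Nppa, Ryr2 and Myh6 on 2 each, and Myl7 and Tnni3 were too dim to be tested. The saline 5-8 array had brighter spiked-in controls, with a mean of 11.1 against 10.1 to 10.2, and a lower upper quartile (2.97 against 3.15 to 3.19). The signal of 3' over 5' probe sets of Gapdh, which reads RNA integrity, was 0.58 and 0.74 log2 units in ProMyo and 0.90 and 0.81 in saline muscle, and for Actb 1.64 and 1.72 against 1.96 and 1.80. For both genes the ProMyo arrays read lower than either saline array. The part of these array differences in the values of the myosin genes was not tested.

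Of the members, 3 were bright and 5 dim. Myh4 had the brightest probe set on all 4 arrays, Myh1 the second and Myh2 the third, with means of 12.04, 11.56 and 9.98 (log2 signal), and the ranges of these 3 did not overlap. Myh4 lay above 99.95% of the 15103 genes tested, Myh1 above 99.89% and Myh2 above 99.13%. After a gap of 8.30 log2 units came Myh8 (1.69), Myh7 (1.43), Myh3 (1.15), Myh6 (0.73) and Myh7b (0.50). Each of these 5 overlapped its neighbour in range, so their order is not resolved. This is an order of probe sets, since probe sets bind with different strength: the 3 probe sets of Myh1 spread over 6.55 log2 units and the 2 of Myh4 over 3.62, more than the gap from Myh4 to Myh2. It gives no order of transcript number.

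**Figure D1:**
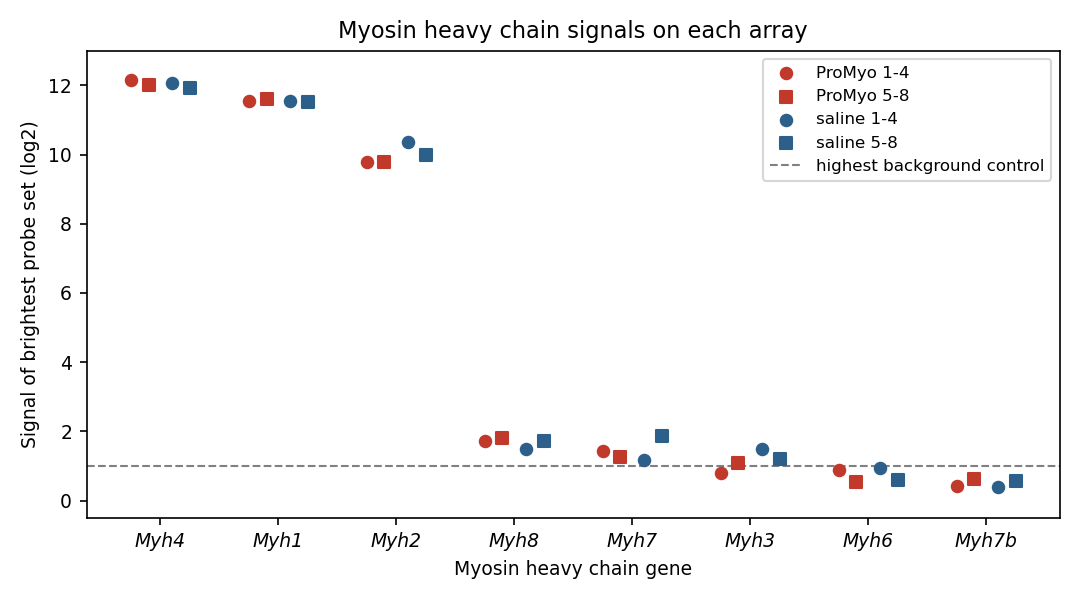
Log2 signal of the brightest probe set of each myosin heavy chain gene (horizontal axis, by mean) on the 4 arrays; circles are pools of animals 1-4, squares pools 5-8, red ProMyo and blue saline, and the dashed line is the highest background control (0.99). Myh4, Myh1 and Myh2 sit between 9.78 and 12.16 and the other 5 genes at 1.85 or below.

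No member passed the test for a difference between ProMyo and saline muscle. Of 15103 genes tested with limma, 0.00% had an adjusted p under 0.05 and 5.79% an unadjusted p under 0.05; of the 8 members, 0 met either. All 8 were above the filter on dim probe sets, and 6 were above the background controls on all 4 arrays. In both pools the ProMyo leg read higher for 4 members (Myh1, Myh4, Myh7b and Myh8) and lower for 3 (Myh2, Myh3 and Myh6), where 29.0% of all genes were higher in both and 24.0% lower in both. The members' median difference was -0.01, beside 0.01 over all genes. With quantile-normalised arrays 1 member (Myh7b) was higher in both pools and 2 (Myh2 and Myh3) lower in both. Of all 15108 genes tested on that scale, 3793 were higher and 4499 lower in both. In whole muscle, fewer fibres of a type and less RNA per fibre cannot be told apart.

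Among the fast chains, Myh2 was the member that stood lower in ProMyo muscle. Its log2 signal was 9.80 and 9.78 on the ProMyo arrays of pools 1-4 and 5-8, and 10.37 and 9.98 on the saline arrays. Both ProMyo values lay below both saline values, and the ProMyo arrays lay closer together than the saline arrays. The difference was -0.57 in pool 1-4 and -0.21 in pool 5-8, with a mean of -0.39 ± 0.19 (SE, n = 2 pools per group; 95% interval -0.88 to 0.11; limma, adjusted p = 0.83), a 1.31-fold higher mean signal in saline muscle. Among all genes, 15.7% had both ProMyo arrays below both saline arrays. The saline 1-4 array carried much of the size: without it the difference was -0.19, and without saline 5-8 it was -0.58. Myh2 had 1 probe set.

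Myh4, the type 2B chain, read 12.16 and 12.02 on the ProMyo arrays and 12.07 and 11.91 on the saline arrays. The groups overlapped, while each pool was slightly higher in the ProMyo leg, by 0.09 and 0.11. The mean difference was 0.10 ± 0.17 (SE; 95% interval -0.32 to 0.52; limma, adjusted p = 0.94). It was 0.02 without saline 5-8, 0.03 without ProMyo 1-4, 0.17 without ProMyo 5-8 and 0.18 without saline 1-4. Its other probe set read 8.43 and 8.25 in ProMyo and 8.64 and 8.38 in saline muscle, with differences of -0.21 and -0.13 within the pools. The probe sets of Myh4 thus disagreed in sign, and their mean gave -0.03. In pool 1-4 quantile normalisation brought the first difference to 0.00.

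Myh1, the type 2X chain, was the steadiest member, with 11.55 and 11.62 on the ProMyo arrays and 11.55 and 11.53 on the saline arrays. Its standard deviation over the 4 arrays, 0.04, was lower than that of all but 1.61% of the genes tested. The ProMyo values both lay above the saline values, as in 17.8% of genes, but by 0.003 in pool 1-4 and 0.09 in pool 5-8. The mean difference was 0.05 ± 0.15 (SE; 95% interval -0.34 to 0.44; limma, adjusted p = 0.98), and in pool 1-4 the sign turned when arrays were centred on their medians (-0.02) or quantile-normalised (-0.08). Leaving out ProMyo 5-8 brought the mean to 0.02 and leaving out ProMyo 1-4 to 0.08. This probe set has a name ending in x_at, which by the maker's convention marks probes that can also bind other transcripts, and the genes of this family are close in sequence. The second probe set read 11.04 and 11.21 in ProMyo and 11.02 and 11.07 in saline muscle, with a difference of 0.08 ± 0.17. The dimmest, at a mean of 5.01, differed by 0.22 in pool 1-4 and -0.29 in pool 5-8.

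**Figure D2:**
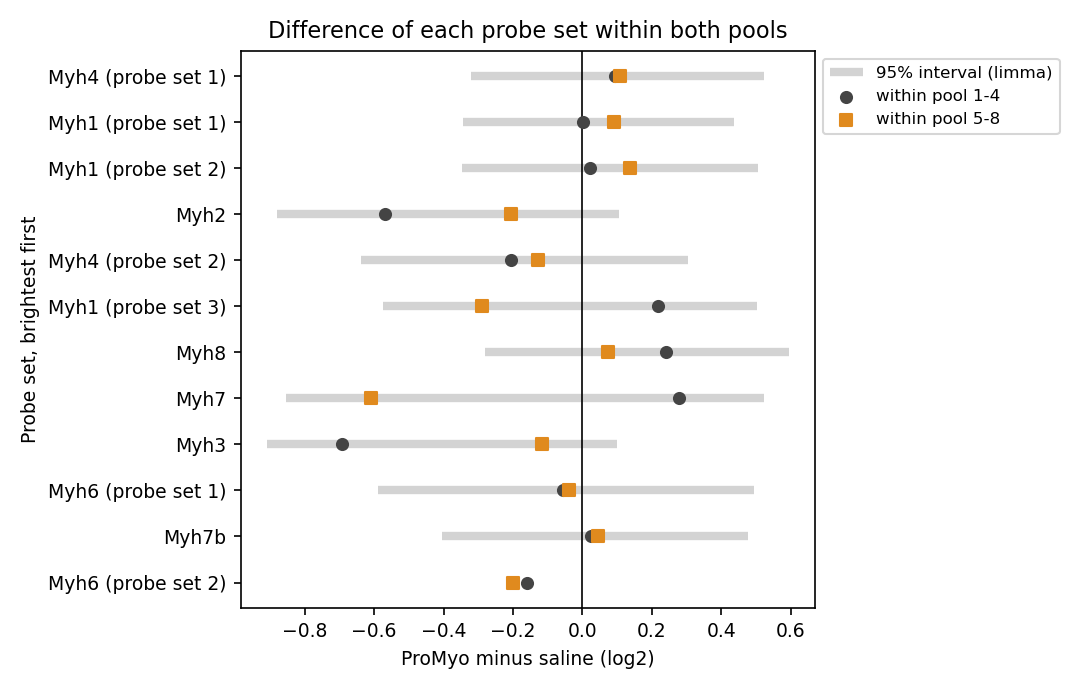
ProMyo minus saline on the log2 scale for the 12 probe sets of the members, brightest at the top: circles are pool 1-4, squares pool 5-8 and grey bars the 95% interval of the mean difference from limma (none for the probe set of Myh6 below the filter). Every interval shown crosses 0. Myh2 and Myh3 lie left of 0 in both pools, while Myh7 and the dimmest probe set of Myh1 lie on opposite sides of 0.

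The signal of one chain relative to another on an array does not depend on a brightness factor common to all its probe sets. The response of each probe set cancels between arrays only if it is the same at every signal level. That was not tested, and Myh4 and Myh1 lay near the top of the scale, which ended at 13.15. Myh4 stood 2.36 and 2.24 log2 units above Myh2 on the ProMyo arrays, and 1.70 and 1.93 above it on the saline arrays. Both ProMyo values were above both saline values. The shift of Myh4 against Myh2 was 0.66 in pool 1-4 and 0.31 in pool 5-8, with a mean of 0.49, or 1.40-fold. Myh1 against Myh2 gave 1.76 and 1.84 on the ProMyo arrays and 1.19 and 1.54 on the saline arrays, a mean shift of 0.43. For each of these ratios the exact two-sided permutation test gave p = 0.333 (0.833 adjusted over the 5 ratios computed), which is the smallest p that this test can give with 2 arrays against 2, so it cannot reach 0.05 for any ratio. No other test was run on the ratios. Myh4 against Myh1 shifted by 0.05 (exact permutation test, p = 0.667, adjusted 1.00), and its ProMyo and saline values overlapped. Without the saline 1-4 array, Myh4 against Myh2 shifted by 0.37 and Myh1 against Myh2 by 0.25; without saline 5-8 they shifted by 0.60 and 0.61. With each gene's probe sets averaged the shifts were 0.35 and 0.42. Both ratios share Myh2, and their common part is its difference given above.

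**Figure D3:**
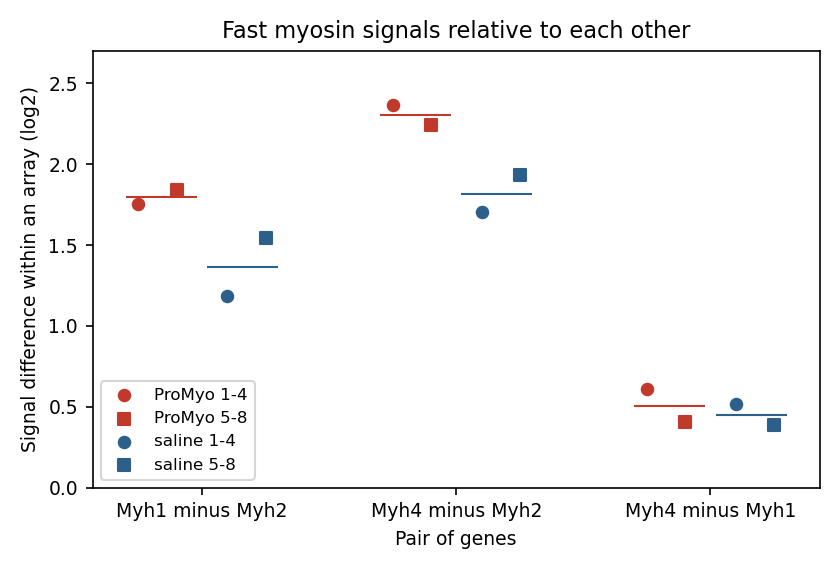
Log2 difference between the brightest probe sets of a pair of myosin genes on the same array (vertical axis) for 3 pairs; red is ProMyo, blue saline, circles pool 1-4, squares pool 5-8 and lines the group means. For the pairs with Myh2 both ProMyo arrays lie above both saline arrays (means of 2.30 against 1.82 for Myh4 and 1.80 against 1.36 for Myh1), and for Myh4 minus Myh1 they overlap.

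The slow chain Myh7 was dim and its pools went opposite ways. It read 1.44 and 1.25 on the ProMyo arrays and 1.16 and 1.85 on the saline arrays, so that saline 5-8 was the highest and saline 1-4 the lowest. The difference was 0.28 in pool 1-4 and -0.61 in pool 5-8, with a mean of -0.16 ± 0.27 (SE; 95% interval -0.85 to 0.52; limma, adjusted p = 0.94). Without the saline 5-8 array the mean turned to 0.18, and without saline 1-4 it was -0.51. Its shift was 0.22 against Myh2 and -0.27 against Myh4, with opposite signs in the pools for both (exact permutation test, p = 1.00 for each). A probe set listed under both Myh7 and Myh6 was brighter, at 3.78 and 3.77 in ProMyo and 3.97 and 3.82 in saline muscle. Both ProMyo values lay below both saline values, as for 15.7% of all genes, with 3.78 and 3.82 as the nearest values of the groups. Which of these genes the probe set read cannot be told apart, and it was not counted for either. A second shared probe set stayed at 0.71 or below.

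Of the chains of developing and regenerating fibres, Myh3 read 0.79 and 1.10 on the ProMyo arrays and 1.48 and 1.21 on the saline arrays. Both ProMyo values lay below both saline values, as for 15.7% of all genes. The differences were -0.69 and -0.12, with a mean of -0.40 ± 0.20 (SE; 95% interval -0.91 to 0.10; limma, adjusted p = 0.83). The mean was -0.25 without ProMyo 1-4 and -0.56 without ProMyo 5-8. Each array's value lay above the highest control of its array, none of which exceeded 0.99. The values behind the pool 1-4 difference recur to the last digit elsewhere in the deposited table, the ProMyo value in 978 entries in all and the saline value in 649. The size of the Myh3 difference and the order of its groups are thus uncertain. Myh8 read 1.73 and 1.80 in ProMyo and 1.48 and 1.73 in saline muscle. The groups overlapped, and the difference was 0.16 ± 0.17 (SE; 95% interval -0.28 to 0.59; limma, adjusted p = 0.90). It was 0.03 without saline 1-4 and 0.28 without saline 5-8.

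The heart and slow-tonic chains were at or near background. Myh6 read 0.87 and 0.54 in ProMyo and 0.93 and 0.58 in saline muscle, above the controls of its own array in both 1-4 pools only, and its other probe set stayed at 0.33 or below. Myh7b read 0.42 and 0.62 in ProMyo and 0.40 and 0.57 in saline muscle, above the controls on 1 array. The differences of -0.05 ± 0.21 and 0.04 ± 0.17 (SE; limma, adjusted p = 0.99 for each) thus compare levels at or near background.

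Companion genes of these myosins were taken from 9 lists by role, and 0 of their genes passed limma's test at an adjusted p of 0.05. Beside the counts of each list, 29.0% of all genes were higher in both pools and 24.0% lower in both. Of 12 slow fibre partners, such as the slow light chains and troponins, 6 read lower in the ProMyo leg of both pools and 2 higher (Tnni1 and Tpm3), with a median of -0.12. That median was -0.23 without ProMyo 5-8, -0.20 without saline 5-8 and -0.03 with probe sets averaged. An unadjusted p under 0.05 in limma was reached by 2 of the 12, Csrp3 and Myl2, against 5.79% of all genes. Myl2, the slow regulatory light chain that binds Myh7, read 3.43 and 1.95 in ProMyo and 5.23 and 3.84 in saline muscle. Its difference was -1.80 in pool 1-4 and -1.89 in pool 5-8, with a mean of -1.85 ± 0.65 (SE; limma, adjusted p = 0.82), where that of Myh7 had opposite signs in the pools. The Myh7 probe set was dim, and the brighter probe set listed under both Myh7 and Myh6 read lower in the ProMyo leg of both pools. Csrp3, a muscle LIM protein, stood at -0.71 ± 0.23, Myl3, the slow essential light chain, at -0.35 ± 0.19 and Tnnc1, slow troponin C, at -0.24 ± 0.16 (SE).

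Of 12 fast fibre partners, 10 read higher in the ProMyo leg of both pools (29.0% of all genes) and 0 lower (24.0%), with a median of 0.15. For these 10, both ProMyo arrays lay above both saline arrays, as for 17.8% of all genes. The 10 fibre markers, which share 5 genes with this list, also had a median of 0.15. This separation was less common under other scalings. With arrays centred on their medians 7 of the 12 showed it, beside 2664 of all 15103 genes. With quantile-normalised arrays 3 showed it and 1 the other way, beside 2425 and 3180 of all 15108 genes. After quantile normalisation 7 read higher and 1 lower in both pools, with a median of 0.10. The same counts over all genes were 3793 and 4499, with a median of -0.02. Mylpf, the fast regulatory light chain, stood at 0.21 ± 0.15, Casq1, the calcium store protein of fast fibres, at 0.21 ± 0.17, Actn3, the fast Z-disc actinin, at 0.21 ± 0.17 and Mybpc2, fast myosin-binding protein C, at 0.20 ± 0.17 (SE). The Myh4 and Myh1 differences given above, 0.10 and 0.05, lay within the range of the 12 fast partners, from -0.07 (Atp2a1) to 0.21, and that of Myh2, -0.39, lay below it. These differences between genes were not tested.

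**Figure D4:**
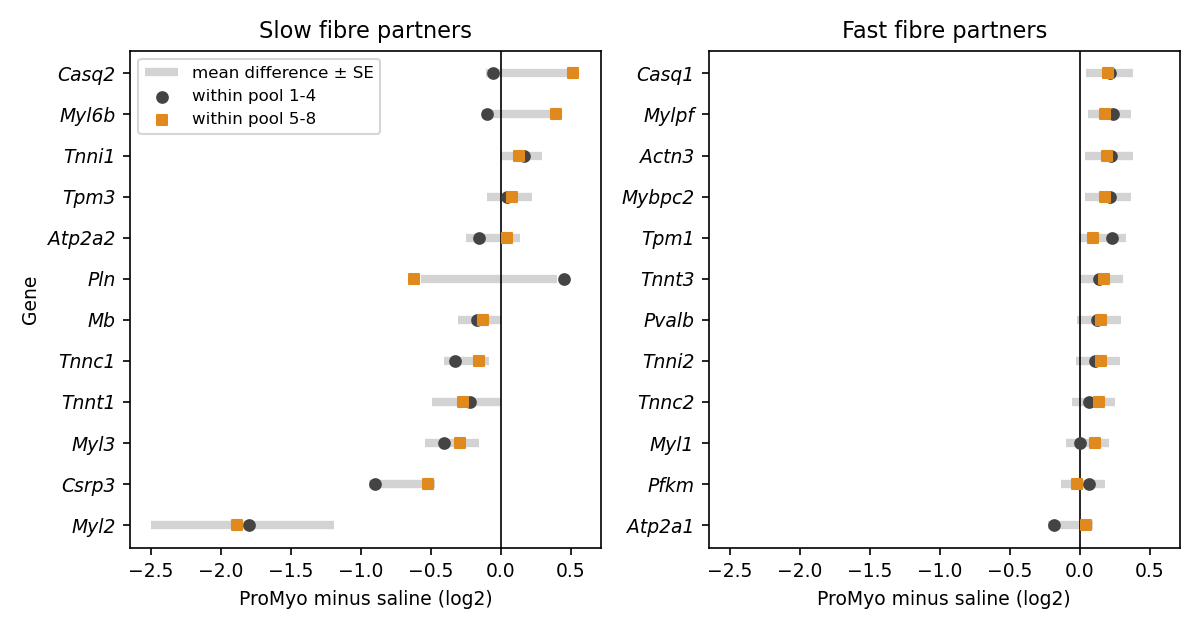
ProMyo minus saline (log2) for 12 slow and 12 fast fibre partner genes, with circles for pool 1-4, squares for pool 5-8 and grey bars for the mean difference ± SE. Of the slow partners Myl2 lies farthest from 0, at -1.80 and -1.89, and 10 of the fast partners lie right of 0 in both pools.

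Among genes of developing and regenerating fibres, 5 of 11 tested were higher in both pools (Actc1, Ncam1, Myf6, Chrna1 and Des) and 2 lower in both (Myl4 and Chrnd). The shares over all genes were 29.0% and 24.0%. The list had a median of -0.01, which was 0.12 without saline 1-4 and -0.14 without saline 5-8. Actc1, the actin of heart and embryonic muscle, read 7.02 and 7.49 in ProMyo and 5.58 and 6.34 in saline muscle, a difference of 1.30 ± 0.31. Ncam1, an adhesion molecule of young and denervated fibres, stood at 1.00 ± 0.30. For both genes an unadjusted p under 0.05 was reached in limma, as for 5.79% of all genes. For 4 of the 11 (Actc1, Ncam1, Myf6 and Chrna1) both ProMyo arrays lay above both saline arrays, as for 17.8% of all genes. Myh3 and Myh8 were dim on all 4 arrays. Myl4, the embryonic essential light chain, stood at -0.43 ± 0.28, and Chrnd, an acetylcholine receptor subunit, was below the background controls on all 4 arrays.

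Of 9 genes of myosin folding and thick filament assembly, 5 were higher in both pools (Mybph, Myom1, Hsp90aa1, Mybpc2 and Mybpc1) and 0 lower in both, with a median of 0.07 (0.19 without saline 1-4). For this list and the next, the shares over all genes were 29.0% and 24.0%. Mybph, myosin-binding protein H, read 1.99 and 1.83 in ProMyo and 1.30 and 1.07 in saline muscle, a difference of 0.72 ± 0.18. These are dim signals, and the value of 1.07 on saline 5-8 lay just above the highest control of that array, 0.99. Myom1, an M-band protein, stood at 0.24 ± 0.15 and the myosin chaperone Hsp90aa1 at 0.27 ± 0.18 (SE). The chaperone Unc45b and the methyltransferase Smyd1, both needed to build thick filaments, stood at 0.07 ± 0.22 and -0.05 ± 0.17. Of 6 genes of myosin turnover, 3 were higher in both pools (Ube2d1, Fbxo32 and Fbxo30) and 1 was lower in both, Trim63 (MuRF1, the ubiquitin ligase of thick filament proteins), at -0.19 ± 0.18. The median of the 6, 0.12, was 0.04 without ProMyo 5-8 or without saline 5-8. Fbxo32 (atrogin-1) stood at 0.13 ± 0.16, Ube2d1 at 0.18 ± 0.17 and Cul1 at 0.12 ± 0.17 (SE).

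Of 13 genes listed as regulators of the fast programme, 4 were higher in both pools (Sox6, Eya1, Tbx15 and Hdac4) and 2 lower in both (Vgll2 and Nfix), with a median of -0.04. The shares over all genes were 29.0% and 24.0%. This list does not separate genes that promote the programme from genes that restrain it. The sign of Vgll2 or of another gene in it thus gives no direction of the programme. Sox6, a repressor of slow genes, stood at 0.22 ± 0.15, Vgll2 at -0.47 ± 0.27, Nfix at -0.29 ± 0.19 and Myod1 at -0.42 ± 0.47 (SE). Of 17 genes listed as regulators of the slow programme, 7 were higher in both pools and 2 lower in both (Prox1 and Nfatc4), with a median of 0.03. This list does not separate promoting from restraining genes either, so its median gives no direction of the programme. Esrrg, a nuclear receptor of oxidative metabolism, stood at 0.29 ± 0.17, Ppp3ca, the calcineurin catalytic subunit, at 0.24 ± 0.18, Prox1 at -0.25 ± 0.18 and Thra at -0.32 ± 0.31 (SE). With quantile-normalised arrays 3 of the fast regulators were higher and 4 lower in both pools, and 4 of the slow regulators higher and 4 lower. Of all 15108 genes, 3793 were then higher and 4499 lower in both. The medians of the fast and slow lists were -0.09 and -0.04, beside -0.02 over all genes, so that of the slow list changed sign.

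Heavy chains of the same myosin class are also made outside the sarcomere. Myh9 (non-muscle 2A) stood at 0.09 ± 0.15 and Myh14 (non-muscle 2C) at 0.24 ± 0.26, both higher in both pools, and Myh10 (non-muscle 2B) at -0.004 ± 0.20 and Myh11, the smooth muscle chain, at -0.05 ± 0.31 (SE). Of the 4 measured muscle spindle genes 0 were higher in both pools and 1, Etv5, was lower in both, at -0.03 ± 0.15. Egr3, a factor of intrafusal fibres, stood at -0.13 ± 0.19, Etv4 at -0.06 ± 0.18 and Ngfr at 0.21 ± 0.20. Ngfr read 0.7884 on both ProMyo arrays and on saline 1-4, to 4 decimals the value of Myh3 on ProMyo 1-4. On saline 5-8 it read 0.38, below the highest control of that array. Etv4 read 1.3995 on both ProMyo arrays. The sizes of these differences are thus uncertain.

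Markers of other cell types were read on the same arrays, where 24.0% of all genes were lower and 29.0% higher in both pools. Of 7 fibroblast markers 5 (Col1a2, Pi16, Col1a1, Col3a1 and Pdgfra) were lower and 1 (Lum) higher in both pools, and their summed signal was 9.85 and 9.82 in ProMyo and 10.14 and 10.29 in saline muscle (log2 of the sum). Of 6 tendon markers 4 (Chad, Fmod, Thbs4 and Tnmd) were lower in both pools (9.75 and 9.59 against 10.10 and 10.17), and of 7 macrophage markers 4 (C1qb, Mrc1, Adgre1 and Csf1r) were lower and 1 (Cd163) higher (7.46 and 7.33 against 7.85 and 7.57). In all 3 sums the ProMyo arrays read lower than either saline array. A sum follows its brightest genes: Fmod, the brightest tendon marker, alone read 9.35 and 9.22 in ProMyo and 9.78 and 9.85 in saline muscle. The remaining markers of these lists, Dcn, Scx, Mkx, Cd68 and C1qa, had opposite signs in the pools. The summed fibre markers read 14.74 and 14.70 against 14.66 and 14.57. The median difference was 0.08 for smooth muscle and endothelial markers, 0.06 for satellite cell, -0.05 for heart, -0.14 for nerve and -0.25 for adipocyte markers. The part of these shifts in the values of Myh2 and of the partner genes was not tested.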

How the data were processed

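The deposited values are log2 signals of probe sets on 4 Affymetrix arrays. According to the labels, RNA was amplified and labelled with Nugen kits. The submitters' processing notes name RMA and Affymetrix Expression Console, without versions. The log base is not stated and was read from the values, which run from -0.45 to 13.15. Of 45101 probe sets, 34958 had 1 symbol, 932 several and 9211 none in the platform annotation, and the 64 array controls were left out. By gene identifier, 34754 of those with 1 symbol matched RefSeq (GRCm38.p6) and no symbol changed; the other 204 kept the annotation's symbol. Each gene was read by its brightest probe set (mean of 4 arrays), with means below the 25th percentile (0.45) left out. Groups were compared with limma 3.58.1 in R 4.3.3 (lmFit, eBayes), with Benjamini-Hochberg adjustment over all 15103 genes at a threshold of 0.05. Other probe sets of a gene come from the same fit over every probe set. The code was tested on simulated data.

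The pools are paired by the design, as both legs came from the same mice; deviations of same-numbered pools correlated with r = 0.16 across genes. The number of arrays, 2 per group, limits the precision (median standard error 0.19). The SEs and p-values of limma combine each gene's own spread between pools with a spread borrowed from all genes. The borrowed part had a weight of 3.16 against 2 for the gene's own. With a variance trend the SE fell from 0.15 to 0.056 for Myh1 and from 0.17 to 0.076 for Myh4, and rose from 0.17 to 0.24 for Myh8. Pooled RNA hides the spread between animals. The members, the companion lists and the marker lists were chosen with earlier results of these data known. Named genes were all members, up to 4 genes with the smallest p in each companion list and genes behind counts of 5 or fewer; Unc45b and Smyd1 were added by choice. Genes most like a member were to be named only for members among the most variable genes; none entered, and Myh7, the most variable member, varied more than 75.4% of genes. Alternatives were the pool as a block, other filters and variance models, median centring, quantile normalisation, the mean of probe sets, every probe set, and leaving out each array.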

Additional observations from a re-analysis of the deposited data

How the results depend on the processing

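No member passed the threshold under any alternative that tested it (13 each; 11 for Myh6 and 12 for Myh7b), and Myh1, Myh2, Myh3 and Myh8 kept the sign of their mean difference in each. Myh2 ran from -0.58 to -0.19. With the pools of animals as a replicate block (paired legs), limma called 0 genes, and Myh2 stood at -0.39 with an SE of 0.17 (adjusted p = 0.68); the block changed no call. With a variance trend the unadjusted p of Myh2 in limma was 0.0198 (adjusted p = 0.81, and 0.52 to 1.00 over its alternatives). Averaging the probe sets turned Myh4 to -0.033 and the shift of Myh4 against Myh1 to -0.063. Leaving out 1 array gave -0.22 to 0.13 for Myh6, -0.064 to 0.14 for Myh7b and -0.51 to 0.18 for Myh7. The same gave -0.048 to 0.16 for Myh4 against Myh1, -0.32 to 0.76 for Myh7 against Myh2 and -0.69 to 0.16 for Myh7 against Myh4. With every probe set tested, 1 probe set passed, which has no gene symbol here and is no member. Genes at an unadjusted p under 0.05 numbered 874 of 15103, against 353 to 1599 of 15103 without 1 array, and 2130 of 33778 probe sets with each tested by itself. Of the companion lists' medians under the alternatives, 98 moved by no more than the SD between the medians of the pools and 19 by more, those of the slow partners from -0.23 to -0.03 and of the fast partners from 0.10 to 0.19. The causes were not tested. Signals near the background controls limit Myh3, Myh6, Myh7, Myh7b and Myh8, and also dim companion genes such as Mybph, Prox1, Myh14, Tnni1, Egr3, Etv4 and Ngfr. A lone array left in a group was assumed to vary like the other group.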

Other observations

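A probe set annotated to Myhas, an antisense RNA gene of the fast myosin cluster, was as bright as the adult fast chains and was picked after its values were seen. It read 11.14 and 11.21 on the ProMyo arrays and 11.17 and 11.14 on the saline arrays, with differences of -0.03 and 0.06 within pools 1-4 and 5-8 (limma over every probe set, adjusted p = 1.00). The annotation gives it the same sequence accession as the brightest probe set of Myh1, whose values were 11.55 and 11.62 in ProMyo and 11.55 and 11.53 in saline muscle. Whether it reads the antisense RNA, Myh1 or both cannot be told apart from these values.

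Many dim values of the deposited table are repeated to the last digit. The most frequent one, 0.24, stands in 2072 entries of 1697 probe sets. Among the members, Myh3 held such a value on both 1-4 arrays and Myh7b on saline 5-8, the last found in 69 entries in all.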
